A study of Drosophila melanogaster with 8 samples.

Results

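The change in expression that goes with mutant mitochondrial DNA (mtDNA) was compared between libraries without and with FOXO knockdown, in all 8 of the 8 libraries of the series. The quantity reported is the interaction on the log2 scale: mutant minus control mtDNA with knockdown, minus mutant minus control mtDNA without knockdown. A negative value means that the change with mutant mtDNA was more negative, or less positive, under knockdown. It was tested in 11561 of the 17473 genes of the count table, those with enough counts.

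Intestinal stem cells divide in the fly midgut and give rise to absorptive enterocytes and hormone-secreting enteroendocrine cells. Mitochondrial DNA encodes a small set of subunits of the respiratory chain and ATP synthase, the machinery of oxidative phosphorylation, while the other subunits and all ribosomal proteins of the mitochondrion are encoded in the nucleus. FOXO is a forkhead transcription factor held in the cytoplasm by insulin signalling. When insulin signalling is low or cells are stressed it enters the nucleus and binds genes of stress resistance, metabolism and the insulin pathway itself, among them Thor, the fly 4E-BP that restrains cap-dependent translation, and InR, the insulin receptor.

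The libraries were labelled as Drosophila melanogaster intestinal stem cells and fell into 4 groups of 2 replicates: control or mutant mtDNA, each without or with knockdown of FOXO. According to the labels' protocol, RNA held by a FLAG-tagged poly(A)-binding protein was pulled from formaldehyde-fixed, sonicated material on anti-FLAG beads, so a transcript is measured as far as it was bound there. The mutation in the mtDNA, the driver of the tagged protein, the knockdown construct and the age and sex of the flies are not given in the sources used here. Nothing in the labels says that replicates came from separate flies, so the p-values measure the spread between these samples, which may be technical.

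Total counts ranged from 21133996 to 39327066 per library. Control replicate 1 and mutant replicate 1 stood apart: 18.5% and 31.0% of their counts fell on ribosomal RNA (rRNA) genes, against 79.8% to 84.0% in the other 6 libraries, which left 32059520 and 19134934 counts outside rRNA against 4045799 to 7484224. These 2 are called the low-rRNA libraries here and the other 6 the high-rRNA libraries. The fit held a term for this library class. All 4 knockdown libraries were high-rRNA, so the term was estimated from the control and mutant libraries without knockdown alone, and only 3 residual degrees of freedom remained. The 15 enterocyte markers summed to 4923 to 13458 CPM (counts scaled to the size of each library) and the 9 progenitor markers to 239 to 302 CPM. Jon65Aiv, a digestive protease of enterocytes, had 1693 to 3373 CPM, and esg, the progenitor transcription factor escargot, 18.5 to 29.1 CPM, so transcripts of differentiated gut cells were present at high level under the stem cell label. In such bulk samples, fewer cells of a type and less RNA per cell cannot be told apart.

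The foxo transcript itself did not separate the labels. It had 43.3 and 61.9 CPM with control mtDNA, 49.8 and 66.6 with mutant mtDNA, 52.1 and 48.1 with control mtDNA and knockdown, and 52.1 and 53.1 with mutant mtDNA and knockdown. Across the 6 high-rRNA libraries all 4 knockdown values lay below both values without knockdown, while across all 8 libraries the groups overlapped. Knockdown against none gave a log2 change of -0.28 ± 0.14 (SE) with control mtDNA and -0.37 ± 0.14 with mutant mtDNA, and edgeR adjusted p-values were 0.482 and 0.266. The foxo interaction was -0.09 ± 0.17 (edgeR adjusted p = 0.8998). Knockdown therefore refers to the label throughout.

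At an edgeR adjusted p under 0.05, 103 genes passed the interaction test, which is 0.891% of those tested: 30 were higher (0.259%) and 73 lower (0.631%). Without knockdown 441 genes changed with mutant mtDNA (3.81%), 286 higher (2.47%) and 155 lower (1.34%). With knockdown 35 changed (0.303%), 22 higher (0.19%) and 13 lower (0.112%). At an unadjusted p under 0.05 the counts were 1294 for the interaction, 1757 without and 1041 with knockdown. The 103 calls depended on the class term and on single libraries: the fit without that term called 0 genes (282 at an unadjusted p under 0.05), and the 6 high-rRNA libraries alone called 174, of which 75 were among the 103. In that fit control and mutant mtDNA without knockdown have 1 library each, so the spread comes from the knockdown pairs alone. Leaving out control replicate 2 gave 228 calls and mutant replicate 2 gave 230, whereas leaving out control replicate 1 or mutant replicate 1 gave 124 and 134. In each of these 4 fits the class term takes up the unpaired library, so the change without knockdown rests on 1 control and 1 mutant library of the same class. Those without a replicate 1 nearly repeat the fit of the 6 high-rRNA libraries, and the 8 fits are not 8 separate checks. Leaving out a knockdown library reduced the count to 13 and 70 for replicates 1 and 2 with control mtDNA and to 12 and 14 for those with mutant mtDNA. In a fit scaled on total counts, where the median interaction of all genes was 0.18 instead of 0.03, 28 genes passed, 18 higher and 10 lower. The same scaling put 79 genes higher and 275 lower without knockdown, so directions are given relative to the bulk of genes. All 103 interaction values kept their sign in every one of these fits in which the gene was tested.

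**Figure D1:**
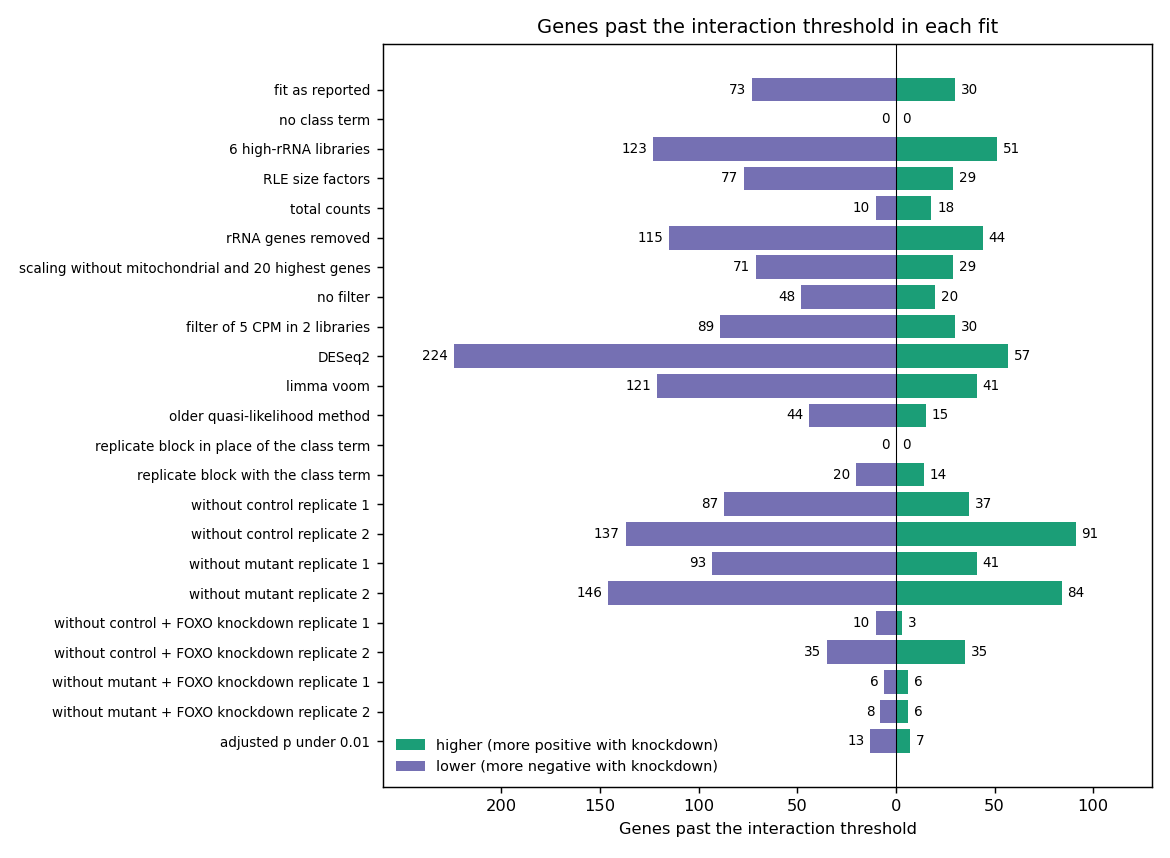
Number of genes past the interaction threshold (horizontal axis, higher to the right, lower to the left) in the fit as reported and in each alternative fit (vertical axis). The reported fit has 30 higher and 73 lower, and the fits of all 8 libraries without the class term have 0.

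The 103 genes were sorted by what the 2 simple comparisons gave. In 78, a change called without knockdown was not called with it, and the interaction had the opposite sign; these are named lost. Of the lost changes 54 were rises and 24 falls. RpLP2 alone was reversed, 10 genes changed only with knockdown and are named gained, CG11893 changed in the same direction but by a different amount, and 13 passed the interaction test alone. In 10 further genes both changes were called with the same sign and the interaction was not, and these are named kept. Of the 441 changes without knockdown, 351 could not be placed, since neither the change with knockdown nor the interaction was called. Over those 441 genes the change with knockdown was smaller or opposite in 421, and 275 had the same sign. The 286 rises had a median log2 change of 0.88 without and 0.10 with knockdown, and the 155 falls -1.13 and -0.06. Genes were chosen here on the change without knockdown, which alone makes that side look larger.

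**Figure D2:**
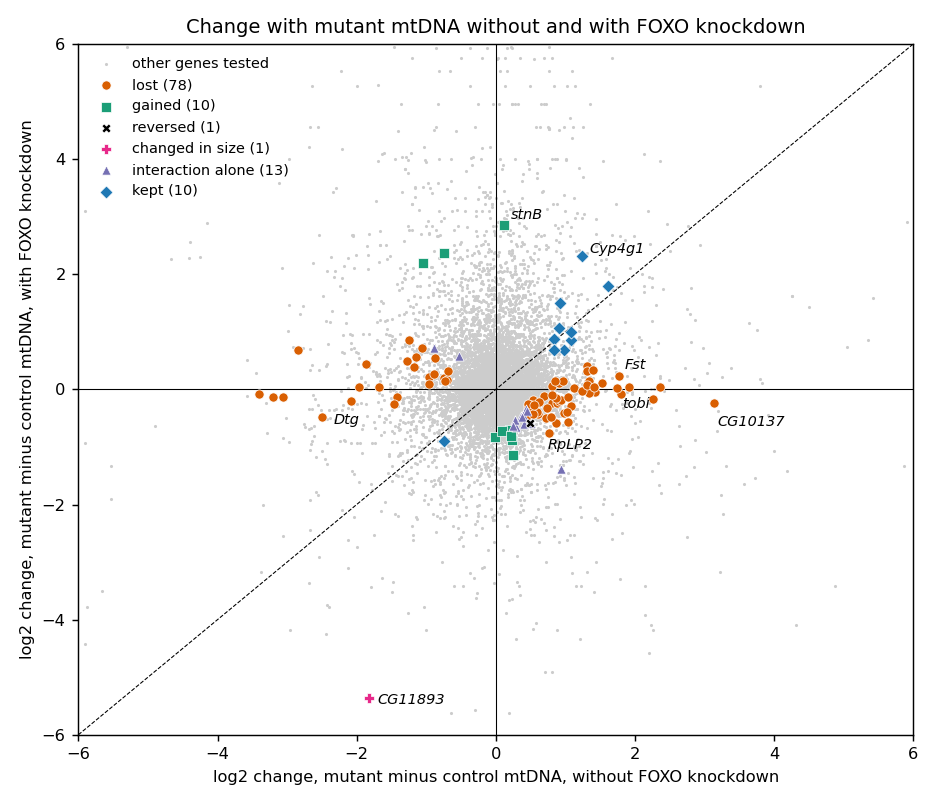
Log2 change with mutant mtDNA without FOXO knockdown (horizontal) against the change with knockdown (vertical), 1 point per gene, coloured by class; 122 genes beyond 6 on either axis are not drawn, and the dashed line marks equal changes. Lost genes lie near the horizontal line at 0, kept genes on the same side of 0 in both changes, and CG11893 at -1.82 and -5.36.

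Among the lost genes, the change without knockdown had the same sign within the low-rRNA pair and within the high-rRNA pair in 78 of 78. Lost genes were chosen for a called change without knockdown, which these pairs determine, so the agreement was largely set by the choice. Among genes called in neither change nor in the interaction it held in 6142 of 11084. With knockdown the change was under 0.5 log2 in either direction in 69, and its 95% interval spanned 0 in 52 of the 78. In the others it lay to one side of 0 without passing the adjusted threshold. Its sign was that of the change without knockdown in only 16 of the 54 lost rises and 7 of the 24 lost falls. The median change with knockdown was -0.19 for the rises and 0.18 for the falls. The class requires a called interaction and no call with knockdown, which favours small or opposite values. The level at which the knockdown libraries settled was not uniform. Set against control replicate 2 and mutant replicate 2, the only libraries of their class without knockdown, the mean of the 4 knockdown libraries lay nearer mutant replicate 2 in 27 of the 54 lost rises and nearer control replicate 2 in the other 27. For the 24 lost falls it lay nearer control replicate 2 in 20. Nearness was taken on the mean of log2 CPM with 0.5 added, and it does not mean that the level lay between them. For the rises the mean of the unlogged CPM lay between the 2 libraries in 35, below both in 11 and above both in 8. For the falls it lay between them in 12, above both in 11 and below both in 1. In tests of knockdown against none, which called 80 genes with control mtDNA (0.692%) and 271 with mutant mtDNA (2.34%), lost rises were higher under knockdown with control mtDNA in 17 and lower in 1, and lower with mutant mtDNA in 26 and higher in 3. Lost falls were higher under knockdown with mutant mtDNA in 19 of 24, and with control mtDNA 1 was higher and 1 lower. These tests share libraries with the interaction and lean on the class term, so they describe the levels and add no independent evidence.

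Sugar-digesting enzymes were among the lost rises. tobi, target of brain insulin, encodes an alpha-glucosidase-like protein first known for its response to insulin-like and glucagon-like hormones. It had 106 and 25.0 CPM with control and 311 and 97.0 with mutant mtDNA. With knockdown it had 166 and 170.3 CPM with control and 169 and 173 with mutant mtDNA. Mutant exceeded control in both library classes without knockdown, and the 4 knockdown values were nearly level, above both high-rRNA values without knockdown. The log2 change was 1.74 ± 0.12 (SE) without knockdown and 0.02 ± 0.12 with it (95% interval -0.24 to 0.28). The interaction was -1.72 ± 0.17 (edgeR adjusted p = 0.00136), -1.95 in the 6 high-rRNA libraries and -1.94 to -1.50 when single libraries were left out, and it passed the threshold in all 8 of those fits.

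The maltase gene Mal-A3, whose product splits maltose, had 79.4 and 26.5 CPM with control and 230.0 and 76.7 with mutant mtDNA. With knockdown it had 56.0 and 49.5 CPM with control and 54.3 and 59.9 with mutant mtDNA. The knockdown values overlapped between the mtDNA groups and lay between the high-rRNA values of control and mutant. The interaction was -1.42 ± 0.17 (edgeR adjusted p = 0.00325), and it missed the threshold without mutant knockdown replicate 1 (-1.35, edgeR adjusted p = 0.0514). Its neighbour Mal-A4 had an interaction of -1.42 ± 0.23 (edgeR adjusted p = 0.0144). Among 20 carbohydrases tested, these 3 were called lower and 0 higher, against 0.631% lower over all genes, and the median interaction was -0.16. Without knockdown 10 of the 20 rose, against 2.47% of all genes, and with knockdown 4 rose, against 0.19%. For most members the loss seen in tobi, Mal-A3 and Mal-A4 was thus not called.

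Of the 10 kept changes, 3 lay in the same list. LManIII, LManV and LManVI encode alpha-mannosidases of the lysosomal type, which trim mannose from glycans. LManV had 339 and 303 CPM with control and 718 and 559 with mutant mtDNA, and with knockdown 258 and 233 with control and 402 and 391 with mutant mtDNA. Both mutant libraries lay above both control libraries with and without knockdown. Its log2 rise was 0.99 ± 0.11 without and 0.69 ± 0.11 with knockdown, and the interaction of -0.29 had a 95% interval of -0.62 to 0.04. LManVI rose by 0.83 ± 0.10 and 0.69 ± 0.10 log2, and LManIII by 0.83 ± 0.13 and 0.88 ± 0.14. An interaction that misses the threshold does not show equal changes: the intervals of these genes allowed a loss of up to 0.62 log2 for LManV, 0.46 for LManVI and 0.36 for LManIII.

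The other kept genes were Arc1, CR10102, CG12057, brv3, Cyp4p1, Cyp4g1 and mt:ND4. Arc1, a retrotransposon-derived gene whose protein forms capsid-like particles, rose by 1.08 ± 0.15 log2 without and 0.86 ± 0.15 with knockdown, and its interaction interval was -0.66 to 0.24. Cyp4g1, a cytochrome P450 known from hydrocarbon synthesis in oenocytes, had 2.48 and 2.89 CPM with control and 4.05 and 11.99 with mutant mtDNA, and with knockdown 2.54 and 1.40 against 8.72 and 11.4. Its mutant values exceeded its control values in both settings, with log2 rises of 1.25 ± 0.31 and 2.32 ± 0.41. Cyp4p1, another cytochrome P450, rose by 0.93 ± 0.16 and 1.49 ± 0.16. The fall of mt:ND4, a mitochondrially encoded subunit of complex I, was -0.74 ± 0.16 and -0.90 ± 0.15. CR10102, CG12057 and brv3 rose by 0.91 to 1.62 log2 without and 0.99 to 1.80 with knockdown.

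Stress and detoxification genes were among the lost rises as well. Fst, Frost, is induced as flies recover from cold. It had 25.7 and 47.4 CPM with control mtDNA, 80.1 and 178 with mutant mtDNA, 128 and 121 with control mtDNA and knockdown, and 148 and 146 with mutant mtDNA and knockdown. The log2 change was 1.77 ± 0.12 without and 0.24 ± 0.12 with knockdown, where both control libraries lay above control replicates 1 and 2 without knockdown. The interaction was -1.53 ± 0.17 (edgeR adjusted p = 0.00189), and it passed in all 8 fits that left out a library. Cyp6a23, a cytochrome P450 of a family that oxidises foreign compounds, had 37.7 and 45.4 CPM with control and 100.3 and 108 with mutant mtDNA. With knockdown it had 67.1 and 66.0 against 71.3 and 76.3 CPM, between both groups without knockdown. Its interaction was -1.19 ± 0.17 (edgeR adjusted p = 0.00552), and without control knockdown replicate 1 or either mutant knockdown library it was -1.17, -1.14 and -1.22 and missed the threshold. Of 74 cytochrome P450 genes, 3 were called lower, against 0.631% over all genes, and 0 higher, the others being Cyp6d5 (lost, -0.82) and Cyp6a14, lower with mutant than with control mtDNA only under knockdown. The median interaction of the family was -0.15.

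Hsp27, a small heat shock chaperone, had 22.2 and 9.78 CPM with control mtDNA, 49.6 and 17.9 with mutant mtDNA, 5.92 and 4.98 with control mtDNA and knockdown, and 3.85 and 3.47 with mutant mtDNA and knockdown. All 4 knockdown values lay below the 4 values without knockdown. Its interaction was -1.61 ± 0.29 (edgeR adjusted p = 0.0223), -1.45 in the 6 high-rRNA libraries where the adjusted p was 0.118. It was the only 1 of 17 heat shock genes called, against 0.631% lower over all genes, although their median interaction was -0.58. Without knockdown 14 of the 17 values were above 0 and 4 were called higher, against 2.47% of all genes. With knockdown 7 were above 0 and 0 called, against 0.303%. Hsp26 had -1.75 (edgeR adjusted p = 0.0759) and Hsp70Ab -1.998 (adjusted p = 0.145).

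A pair of genes with predicted chitin-binding domains was also lost. CG4835 had 0.677 and 5.53 CPM with control and 4.06 and 25.0 with mutant mtDNA, against 18.6 and 17.2 with control mtDNA and knockdown and 18.9 and 17.8 with mutant mtDNA and knockdown. CG32302 had 1.87 and 0.342 CPM with control and 9.27 and 1.24 with mutant mtDNA, against 16.7 to 20.9 in the 4 knockdown libraries. The knockdown values of CG32302 all exceeded every value without knockdown, whereas those of CG4835 lay below mutant replicate 2. The interaction was -2.32 ± 0.27 for CG4835 and -2.44 ± 0.31 for CG32302 (edgeR adjusted p = 0.00325 for both). CG4835 passed in all 8 fits that left out a library. CG32302 missed the threshold without control replicate 1 (-2.03, edgeR adjusted p = 0.453) and without mutant replicate 1 (-2.03, adjusted p = 0.453).

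Secreted digestive enzymes and gut hormones followed. Of 29 digestive proteases, 9 rose without knockdown, against 2.47% of all genes, and 0 changed with it, against 0.303%. In the interaction only Jon66Ci, a serine protease, was called (-1.23 ± 0.25, edgeR adjusted p = 0.0365), against 0.631% lower over all genes. Its rise without knockdown was 1.06 log2 in the low-rRNA pair but 0.22 in the high-rRNA pair. In the 6 high-rRNA libraries its interaction was -0.74. The median interaction of the 29 proteases was -0.44, and the change was above 0 in 28 of 29 without and 15 of 29 with knockdown. The trypsin gene Try29F (-1.88 ± 0.36) was also lost, but its value was smaller in size in the 6 high-rRNA libraries, at -1.29. Scaled on total counts neither Try29F (-1.66, edgeR adjusted p = 0.118) nor Jon66Ci (-1.08, edgeR adjusted p = 0.190) passed. CG30025, a trypsin-cluster gene with near-identical copies whose reads could be split between them, passed the interaction test alone (-2.31 ± 0.40). NPF, the gut and brain peptide neuropeptide F of enteroendocrine cells, had 3.53 and 1.57 CPM with control and 11.1 and 9.43 with mutant mtDNA. With knockdown it had 7.40 and 8.68 against 9.66 and 6.66 CPM, overlapping between mtDNA groups. Its interaction was -1.88 ± 0.39 (edgeR adjusted p = 0.0432), and it held only when a library without knockdown was left out, lying at -2.18 to -1.63 with adjusted p of 0.0938 to 0.318 when a knockdown library was. IA-2, a protein of dense-core secretory vesicles, had an interaction of -0.80 ± 0.16. The enteroendocrine list as a whole lay on the other side: its median interaction was 0.56, with 11 of 16 above 0 and 2 called lower, against 0.631% of all genes. Without knockdown 5 of 16 were above 0, with 2 called higher and 3 lower, against 2.47% and 1.34% of all genes. The other 14 genes were not called in the interaction, and CCHa2 and AstC, other gut peptides, had values of 1.54 and 0.88 (edgeR adjusted p = 0.0865 and 0.151).

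Marker sums of some cell types moved in part with these genes. The enterocyte list itself holds digestive enzymes, among them Jon65Aiv, which is also in the digestive protease list. Its sum is therefore not a measure separate from the digestive genes. The summed enterocyte markers (15 of 15 tested, Cad99C alone under 1 CPM on average) were 10253 and 4923 CPM with control mtDNA and 13458 and 5794 with mutant mtDNA. With knockdown they were 5546 and 5845 CPM with control and 5005 and 5107 with mutant mtDNA. The ratio of mutant to control was thus 1.31 and 1.18 within the library classes and 0.888 with knockdown. Against 0.891% of all genes, none of the 15 was called in the interaction. Their part in the lost rises of digestive genes was not tested. Enteroendocrine markers summed to 244 to 300 CPM without and 308 to 346 with knockdown. Fat body markers, of which 5 of 10 were under 1 CPM, summed to 61.0 and 27.5 CPM with control and 112 and 36.8 with mutant mtDNA, and with knockdown to 35.7 and 28.2 against 25.8 and 23.6 CPM. Their ratio of mutant to control was 1.83 and 1.34 within the library classes and 0.773 with knockdown. Without knockdown 10 of 10 were above 0 and 4 rose, against 2.47% of all genes. The median interaction of these 10 was -1.10 with 0 called, against 0.891% of all genes. Their part in the lost rises was not tested either. Visceral muscle markers summed to 2044 and 1529 CPM with control and 1693 and 3109 CPM with mutant mtDNA, against 1838 to 2296 with knockdown. Hemocyte, tracheal and germline markers had 0 calls in the interaction, against 0.891% of all genes, with 7 of 10, 6 of 6 and 9 of 9 tested.

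**Figure D3:**
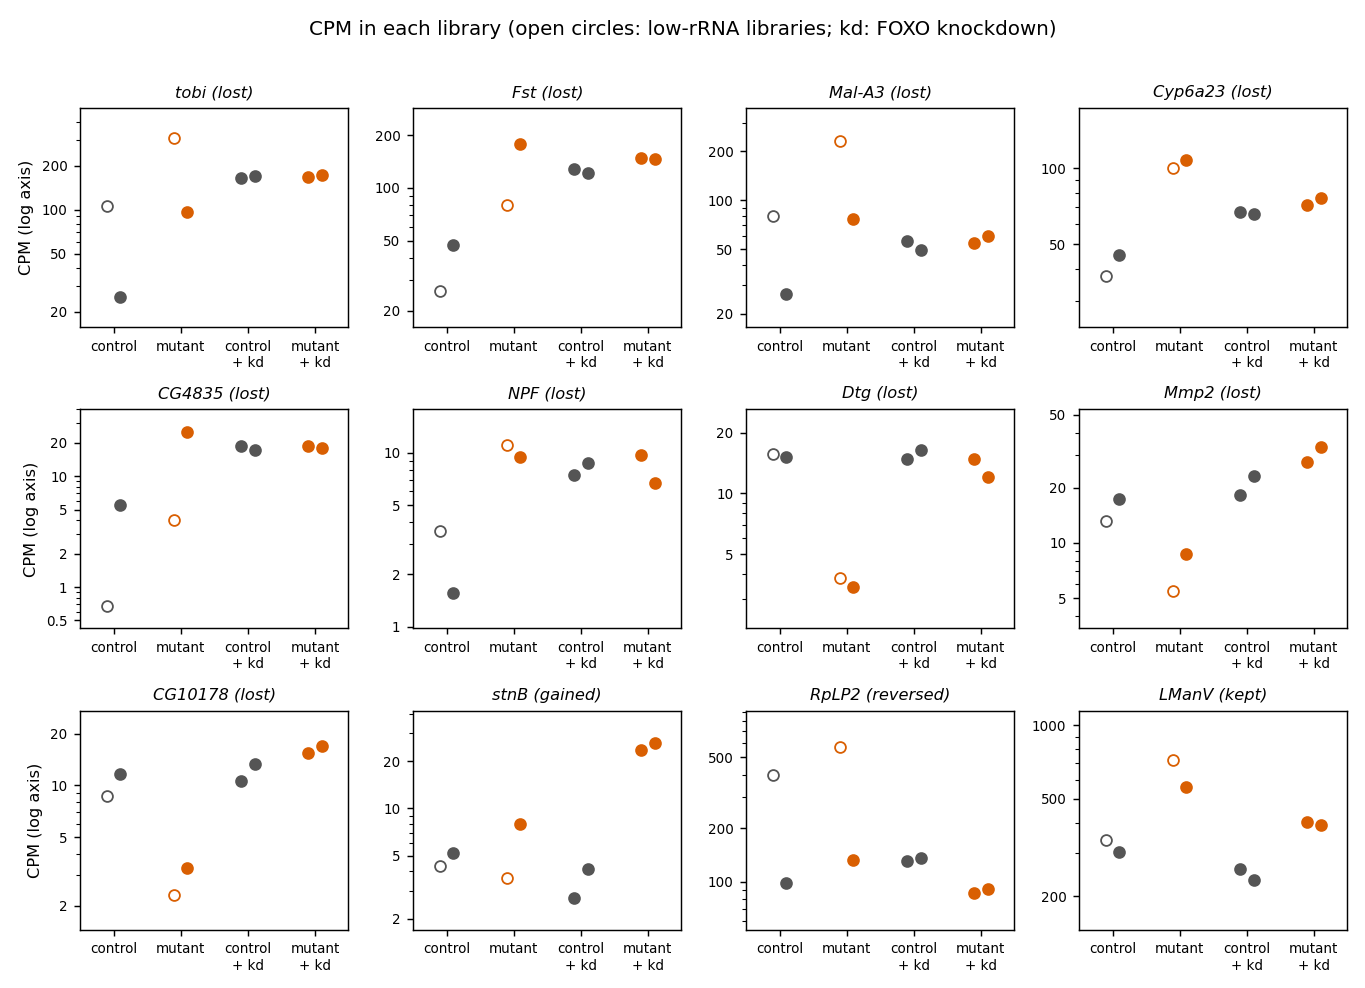
CPM on a log axis in each of the 8 libraries for 12 genes; open circles are the low-rRNA libraries, grey is control and orange mutant mtDNA, and kd marks FOXO knockdown. In 9 lost genes the mutant and control values differ within each library class without knockdown. With knockdown they lie closer, and in Mmp2 and CG10178 the order is turned. stnB rises to 23.5 and 26.1 only with both, and LManV is higher with mutant mtDNA in each setting.

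Among the lost falls 2 belonged to Dpp signalling, the fly BMP pathway. Dtg, named as a Dpp target gene, had 15.8 and 15.2 CPM with control and 3.82 and 3.41 with mutant mtDNA. With knockdown it had 14.8 and 16.3 CPM with control and 14.7 and 12.05 with mutant mtDNA. Both mutant libraries without knockdown lay below all 6 others, whose values overlapped. The log2 change was -2.09 ± 0.20 without and -0.21 ± 0.19 with knockdown. Its interaction was 1.88 ± 0.27 (edgeR adjusted p = 0.00621), 1.93 in the 6 high-rRNA libraries, and it missed the threshold without control knockdown replicate 1 (1.81, adjusted p = 0.0568) or mutant knockdown replicate 1 (1.72, adjusted p = 0.149). brk, brinker, a repressor of Dpp target genes, had 13.8 and 32.2 CPM with control and 7.99 and 14.5 with mutant mtDNA, and 29.6 to 33.8 in the 4 knockdown libraries. Its interaction was 1.05 ± 0.22 (edgeR adjusted p = 0.0419), and leaving out single libraries gave 0.89 to 1.24, past the threshold in 2 of 8 fits. Of 17 genes of the Dpp, Activin and BMP list these 2 were called higher and 0 lower, against 0.259% higher over all genes, with a list median of 0.14.

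Mmp2, a matrix metalloproteinase that cleaves basement membrane, had 13.2 and 17.3 CPM with control mtDNA, 5.46 and 8.71 with mutant mtDNA, 18.3 and 23.2 with control mtDNA and knockdown, and 27.6 and 33.5 with mutant mtDNA and knockdown. The groups did not overlap on either side, and mutant lay below control without knockdown and above it with knockdown, although the latter difference of 0.56 ± 0.18 log2 was not called. The interaction was 1.70 ± 0.26 (edgeR adjusted p = 0.00873), and it missed the threshold without control knockdown replicate 1 (1.53) and without mutant knockdown replicate 1 (1.84) or 2 (1.57). CG10178, a UDP-glycosyltransferase gene also named Ugt301D1, had 8.70 and 11.6 CPM with control and 2.32 and 3.31 with mutant mtDNA. With knockdown it had 10.6 and 13.3 against 15.4 and 17.0 CPM, again with the order turned. Its interaction of 2.31 ± 0.29 (edgeR adjusted p = 0.00356) passed in all 8 fits that left out a library.

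LysD, a digestive lysozyme, had 28.3 and 41.0 CPM with control and 7.27 and 0.925 with mutant mtDNA, against 19.0 to 23.3 in the 4 knockdown libraries. Its interaction was 2.93 ± 0.62 (edgeR adjusted p = 0.0445), but the value ran from 1.84 to 5.33 when single libraries were left out, and it missed the threshold without any 1 of the 4 knockdown libraries. LysD lies in a cluster of near-identical lysozyme genes, so its reads could be split between copies. LysB had 3.001 (adjusted p = 0.0929), and 1 of 7 lysozymes was called higher, against 0.259% of all genes. Other lost falls with large interactions were IntS12, a subunit of the Integrator complex that processes small nuclear RNAs (3.07 ± 0.50), CG30090, a predicted serine protease (3.52 ± 0.58), CG33109 (2.10 ± 0.26), CG43187 (2.03 ± 0.35) and CG34236 (2.00 ± 0.35). CG30090 had 16.5 CPM in control replicate 1 but 1.96 in control replicate 2, and without control replicate 1 its value was 2.13 (edgeR adjusted p = 0.502).

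Cytosolic ribosomal protein genes, which encode the protein part of the translating ribosome, held the largest group of calls. Of 85 tested, 17 were called lower and 0 higher, against 0.631% lower over all genes, and 83 had values below 0, with a median of -0.62 beside 0.03 for all genes. In 76 of the 85 the change with mutant mtDNA was above 0 without knockdown and below 0 with it. Without knockdown 9 rose, against 2.47% of all genes, with a list median of 0.23. Mutant exceeded control within both library classes in 65 of 85, against 29.5% of all genes. With knockdown 6 fell, against 0.112% of all genes, and the median was -0.38. In 75 of 85 both mutant libraries then lay below both control libraries, against 17.5% of all genes. Scaled on total counts, the median without knockdown was -0.03 and 36 of 85 were above 0, so the sign depended on the scaling. The median of all genes was then -0.27, against 0.02 in the fit as reported, so the list median lay above that of all genes in both. With knockdown 1 of 85 was above 0 in either scaling. With total counts the median interaction of the list was -0.50, beside 0.18 for all genes, and 1 gene was called. In the fit without the class term the median was -0.61 and 0 were called. Without control knockdown replicate 1 or mutant knockdown replicate 1 the medians were -0.67 and -0.58 with 0 calls, without control knockdown replicate 2 it was -0.57 with 4 calls, and without mutant knockdown replicate 2 it was -0.65 with 1 call.

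RpLP2, an acidic stalk protein of the large subunit, was the 1 gene whose change was called in both settings with opposite signs. It had 397 and 97.9 CPM with control mtDNA, 573 and 133 with mutant mtDNA, 131 and 136 with control mtDNA and knockdown, and 86.1 and 91.6 with mutant mtDNA and knockdown. Within each library class mutant exceeded control without knockdown, and both mutant libraries lay below both control libraries with it. The log2 change was 0.49 ± 0.11 (edgeR adjusted p = 0.0192) without and -0.59 ± 0.11 (adjusted p = 0.0364) with knockdown, and the interaction was -1.08 ± 0.15 (adjusted p = 0.00552). It missed the threshold without control knockdown replicate 1 (-1.10, adjusted p = 0.0508), mutant knockdown replicate 1 (-1.03, adjusted p = 0.139) or mutant knockdown replicate 2 (-1.11, adjusted p = 0.088). RpL23A had the lowest value of the group (-1.26 ± 0.18, edgeR adjusted p = 0.00552), with 231 and 121 against 465 and 179 CPM without and 154 and 162 against 109 and 119 CPM with knockdown, and it shares exon sequence with the snoRNA host gene Uhg7. RpS26, RpL11 and RpS28b fell only with knockdown, by -0.70 ± 0.11, -0.82 ± 0.13 and -0.72 ± 0.11. eEF1alpha1, the elongation factor that brings aminoacyl-tRNA to the ribosome, was lost at -0.73 ± 0.15 (edgeR adjusted p = 0.0390). These transcripts also differed between the library classes: the summed ribosomal protein level was 19784 and 23638 CPM in the low-rRNA libraries and 5325 to 7850 CPM in the others. The part of the class difference in the result was not tested; in the 6 high-rRNA libraries alone, with 1 control and 1 mutant library without knockdown, the list median was -0.65 and 26 genes were called lower.

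**Figure D4:**
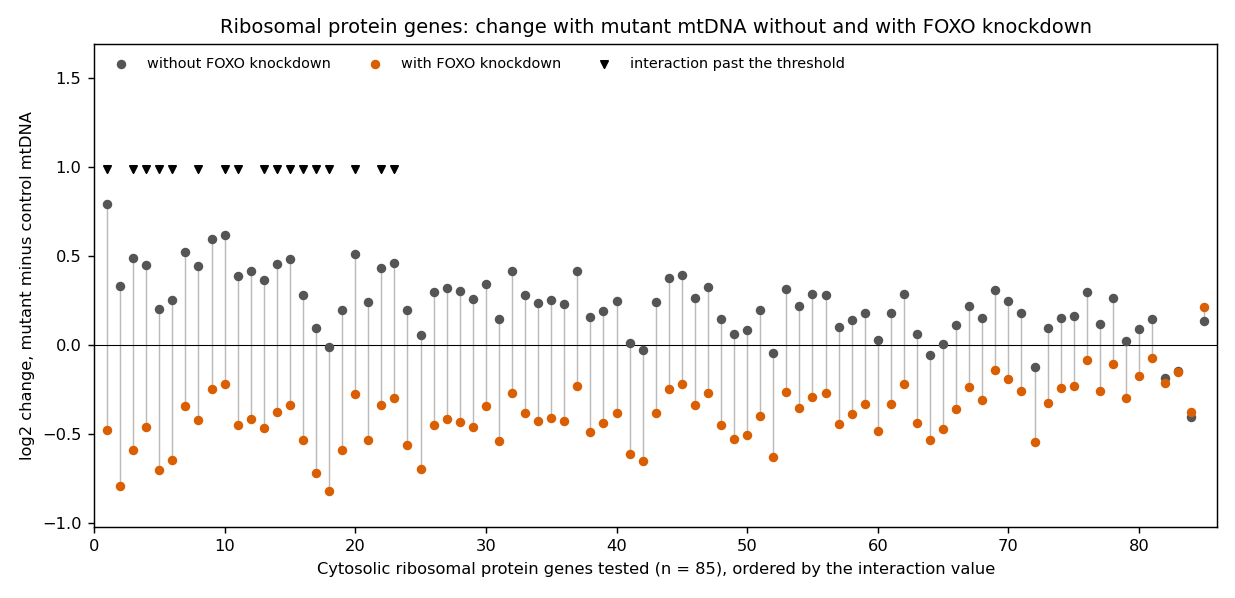
Log2 change with mutant mtDNA (vertical) for each of 85 cytosolic ribosomal protein genes, ordered by interaction value (horizontal); grey points are without and orange points with FOXO knockdown, and triangles mark the 17 genes past the interaction threshold. Grey points lie above 0 in 77 genes and orange points in 1.

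Several other lists of the translation and energy apparatus gave no calls. They were 36 nuclear complex I genes, 34 of complexes II to V, 73 mitochondrial ribosomal proteins, 20 aminoacyl-tRNA synthetases and 15 nucleolar ribosome biogenesis genes. Their medians were -0.14, -0.23, -0.22, -0.35 and -0.18, and 0 passed the interaction test, against 0.891% of all genes. At that share lists of this size hold few or no calls, so the 0 does not set these lists apart. The lowest adjusted p among them were those of ND-PDSW (-1.12, edgeR adjusted p = 0.0686), a complex I subunit, and ATPsynB (-0.74, edgeR adjusted p = 0.098), a subunit of ATP synthase. The 13 mitochondrially encoded mRNAs were all below 0 in both settings, with medians of -1.04 without and -0.55 with knockdown. Of them 5 were called lower without knockdown, against 1.34% of all genes, and 1, mt:ND4, with it, against 0.112%. In the interaction test 0 of the 13 passed, against 0.891% of all genes (median 0.09). mt:CoI, a core subunit of cytochrome c oxidase, had 452 and 1514 CPM with control and 232 and 634 with mutant mtDNA, and 921 and 888 against 601 and 637 with knockdown. Mutant was below control in every pairing within a library class, by -1.11 ± 0.11 log2 without and -0.55 ± 0.11 with knockdown, and the interaction of 0.56 ± 0.15 was not called (edgeR adjusted p = 0.140).

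The insulin pathway and known FOXO targets gave no calls. Of 21 insulin and TOR genes and 11 known fly FOXO targets, 0 passed the interaction test, against 0.891% of all genes. At that share lists this short would seldom hold a call, so the 0 does not set them apart. The list medians were 0.03 and -0.10. Thor had 43.8 and 120 CPM with control and 55.3 and 252 with mutant mtDNA, against 147 and 154 and 184 and 189 with knockdown. Its rise of 0.70 ± 0.15 log2 without knockdown was called, its change of 0.31 ± 0.15 with knockdown was not, and the interaction of -0.39 ± 0.21 was not either (edgeR adjusted p = 0.525). InR had an interaction of 0.42 ± 0.17 (edgeR adjusted p = 0.351). Progenitor markers were also without a call: 9 of 9 were tested, their sums were 286 and 287 CPM with control and 239 and 259 with mutant mtDNA, and 302 and 295 against 244 and 257 with knockdown. Of the 9, 3 fell without knockdown, against 1.34% of all genes. Among them was Sox21a, a progenitor transcription factor whose interaction was 1.02 (edgeR adjusted p = 0.387).

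**Figure D5:**
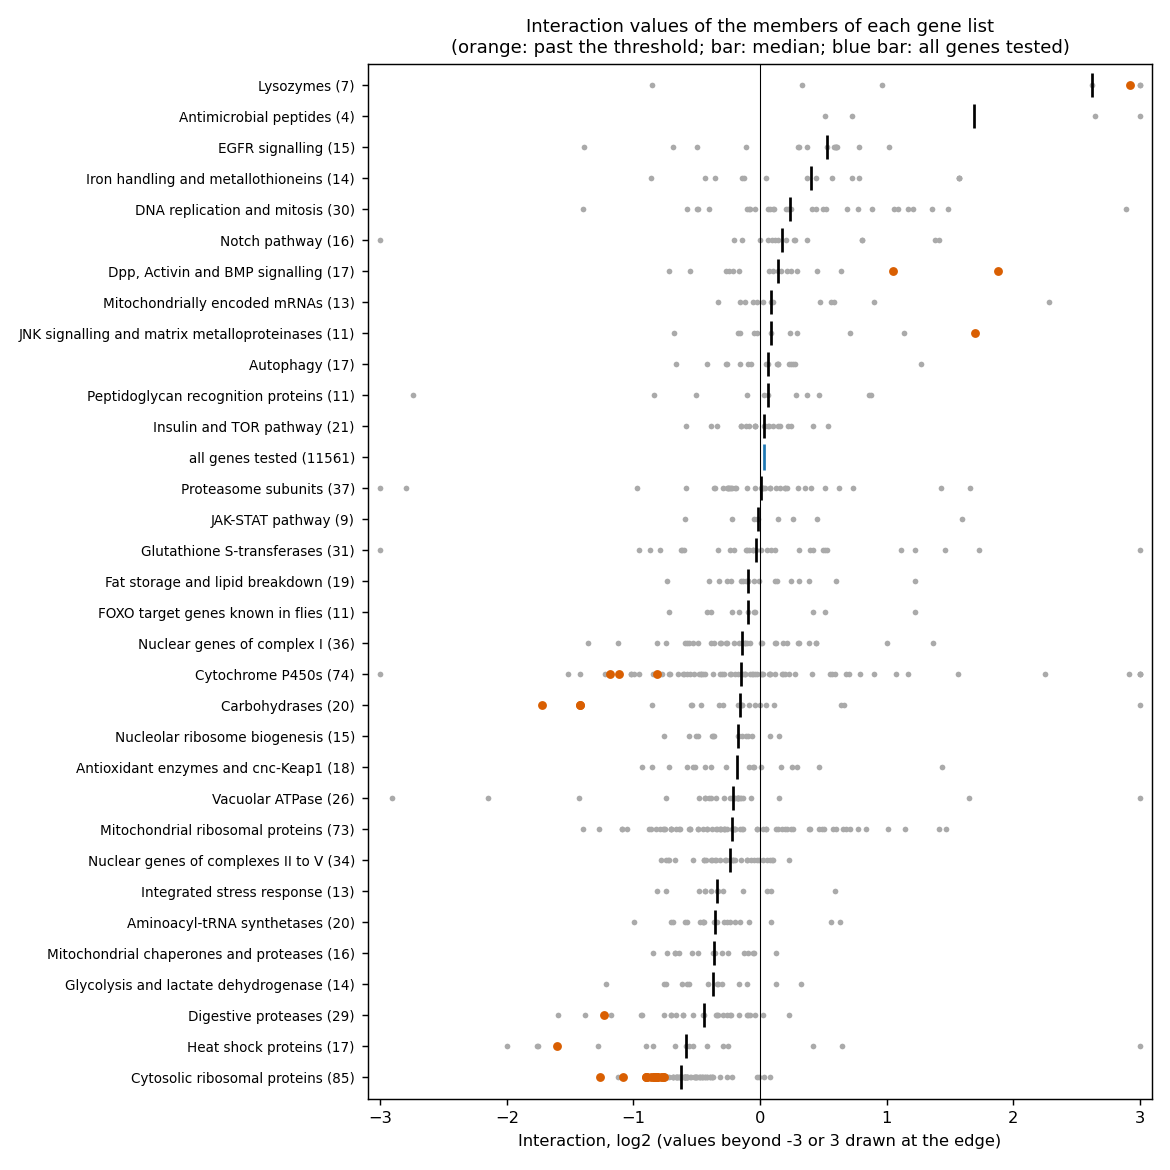
Interaction value on the log2 scale (horizontal) of each member of the 32 pathway lists (vertical, number tested in brackets), values beyond 3 drawn at the edge, with the list median as a black bar, that of all genes as a blue bar, and genes past the threshold in orange. Orange points sit mainly among cytosolic ribosomal proteins, carbohydrases and cytochrome P450s on the left, and the lysozyme, Dpp and JNK lists hold the 4 on the right.

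Among the remaining lists, only that of JNK signalling and matrix metalloproteinases had a call, Mmp2, 1 of 11, against 0.259% higher over all genes. Notch, EGFR and JAK-STAT signalling, replication and mitosis, autophagy, the integrated stress response, mitochondrial chaperones, glycolysis, fat storage, glutathione S-transferases, antioxidant enzymes, peptidoglycan recognition proteins, antimicrobial peptides, metallothioneins, vacuolar ATPase and proteasome had 0, against 0.891% of all genes. Lists this short hold few or no calls at that share. Medians ranged from -0.37 for the 14 glycolytic genes to 1.69 for the 4 antimicrobial peptides tested, all of which averaged under 1 on the log2 CPM scale. The lowest adjusted p in these lists was that of MtnA, metallothionein A (-0.86, edgeR adjusted p = 0.0558), then Pfk, phosphofructokinase (-1.22, edgeR adjusted p = 0.0895).

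Gained changes are differences between mutant and control mtDNA called only with knockdown. stnA and stnB, the stoned genes of synaptic vesicle recycling, are read from 1 dicistronic transcript and had identical counts, so they are 1 measurement. Their level was 4.34 and 5.23 CPM with control mtDNA, 3.64 and 8.00 with mutant mtDNA, 2.72 and 4.15 with control mtDNA and knockdown, and 23.5 and 26.1 with mutant mtDNA and knockdown. The last group lay above all 6 other libraries, the rise with knockdown was 2.86 ± 0.28 log2, and the interaction was 2.74 ± 0.38 (edgeR adjusted p = 0.00522), missed only without control knockdown replicate 1 (2.44, adjusted p = 0.0598). CG15083 had 1.71 to 4.26 CPM in the 6 other libraries and 17.9 and 20.4 with mutant mtDNA and knockdown, and CG15695 had 0.783 to 5.30 and 14.9 and 18.1. Their interactions were 3.11 ± 0.44 and 3.25 ± 0.53 (edgeR adjusted p = 0.00552 and 0.0144), and in the 6 high-rRNA libraries 2.18 and 2.99 (adjusted p = 0.152 and 0.196). CG17571, a predicted serine protease, had 455 and 117 CPM with control and 642 and 116 with mutant mtDNA, and 113 and 117 against 51.5 and 53.2 with knockdown, so within the high-rRNA libraries the group with both stood below the rest. Its interaction was -1.38 ± 0.18 (edgeR adjusted p = 0.00390). Cyp6a14 and snRNA:7SK, the small RNA that restrains the elongation factor P-TEFb, differed in another way, with the control knockdown libraries standing apart. Cyp6a14 had 17.9 and 17.1 CPM with control and 21.6 and 19.6 with mutant mtDNA, and 27.3 and 31.8 against 15.7 and 16.4 with knockdown. Its interaction was -1.11 ± 0.22, and knockdown against none gave 0.81 ± 0.18 with control mtDNA (edgeR adjusted p = 0.0607) and -0.31 ± 0.18 with mutant mtDNA (adjusted p = 0.603). In the high-rRNA libraries snRNA:7SK had 19.8 CPM with control and 20.5 with mutant mtDNA, and 31.7 and 33.4 against 15.8 and 21.7 with knockdown. Its interaction was -1.03 ± 0.21, and knockdown against none gave 0.81 ± 0.17 with control mtDNA (edgeR adjusted p = 0.0424) and -0.22 ± 0.17 with mutant mtDNA (adjusted p = 0.755). snRNA:7SK is not polyadenylated and stood at 849 and 1087 CPM in both low-rRNA libraries, while the others ranged from 15.8 to 33.4.

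CG11893 fell in both settings, and further with knockdown. It had 4.91 and 16.6 CPM with control mtDNA, 2.20 and 2.67 with mutant mtDNA, 21.3 and 14.4 with control mtDNA and knockdown, and 0.287 and 0.637 with mutant mtDNA and knockdown. Mutant libraries lay below control libraries in each setting. The libraries with mutant mtDNA and knockdown held only 7 and 11 counts of CG11893. The log2 change was -1.82 ± 0.32 without and -5.36 ± 0.50 with knockdown. The interaction was -3.54 ± 0.67 (edgeR adjusted p = 0.0257), -2.73 in the 6 high-rRNA libraries and -4.19 to -2.73 when single libraries were left out. The lowest value among the lost genes was that of CG10137 (-3.37 ± 0.61, edgeR adjusted p = 0.0223), which had 33.7 CPM in mutant replicate 1 and 1.32 to 4.23 in the other 7 libraries. It passed in 2 of the 8 fits that left out a library: without control replicate 1 or mutant replicate 1 it was -1.92, and without each knockdown library it was -3.58 to -2.77 with adjusted p of 0.0506 to 0.238.

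Of the 3 most abundant genes called, 2 besides eEF1alpha1 remain. 28SrRNA-Psi:CR45860, an rRNA pseudogene, ranged from 10706 to 25216 CPM across the high-rRNA libraries but stood at 17.7 CPM in control replicate 1 and 54.7 in mutant replicate 1, so its level followed the library class, and its interaction was -1.47 ± 0.19. CG34324 had 262 and 203 CPM with control and 540 and 605 with mutant mtDNA, and 468 and 530.1 against 618 and 706 with knockdown. Its log2 change was 1.31 ± 0.14 without and 0.41 ± 0.13 with knockdown, and its interaction of -0.90 ± 0.19 (edgeR adjusted p = 0.0441) passed in 2 of 8 fits that left out a library. A few further lost genes were picked after their values were seen, for their known functions. They were chrb, the REDD homologue charybde that restrains TOR (-0.96 ± 0.17), kdn, citrate synthase (-0.81 ± 0.17), Mdr50, an ABC transporter (-0.99 ± 0.21), and Gal, beta-galactosidase (-1.27 ± 0.18), whose exons overlap the antisense gene CR43866. Leaving out single libraries gave -1.05 to -0.84 for chrb, -0.99 to -0.62 for kdn, -1.14 to -0.80 for Mdr50 and -1.34 to -1.20 for Gal. Scaled on total counts none of them passed (edgeR adjusted p of 0.118 to 0.386). chrb had 55.6 and 74.5 CPM with control and 86.7 and 99.0 with mutant mtDNA, and 84.6 and 84.6 against 64.8 and 60.8 with knockdown, so mutant lay above control without and below it with knockdown.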

How the data were processed

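Per the labels' protocols, RNA bound to the tagged poly(A)-binding protein was eluted, purified and sequenced on a HiSeq in 8 libraries, 2 in each of 4 groups. The authors deposited 1 table of counts per gene, whole numbers that were not normalized; FastQC, cutadapt, HISAT2, featureCounts and limma are named in the submitters' processing notes, without versions. The genome build, the annotation and the use of strand are not given in the sources used here, so no coordinates are printed and antisense or overlapping genes cannot be told apart. Of the 17473 identifiers, 17331 matched the reference annotation, which served for biotypes, overlaps and neighbours. Groups and replicate numbers come from the titles.

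The deposited counts were analysed in edgeR 4.0.16 (R 4.3.3): filterByExpr on the 4 groups, TMM scaling, and quasi-likelihood F-tests in 1 fit of 8 libraries with 4 group means and a term for library class (rRNA share under 50%). P-values were two-sided and Benjamini-Hochberg adjusted over 11561 genes, with a threshold of 0.05. CPM are on TMM-scaled sizes, SE and 95% intervals are those of the fit, and 3 counts correspond to 0.0239 to 0.191 CPM. Floors cover counting error only, because PCR copies of a molecule are counted as separate reads. The common biological coefficient of variation was 0.250 with and 0.472 without the class term. Same-numbered replicates of control and mutant deviated together (r = 0.689). In these groups replicate number and library class are the same split and cannot be told apart. No other pair of groups deviated together (r of -0.037 to 0.002), so numbers were not taken to pair libraries.

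The question, the 40 gene lists, the named genes and the tests were chosen with earlier results of these data known. Named are the 12 highest and 12 lowest called interactions among genes averaging 2 or more on the log2 CPM scale, every gene of the reversed, gained, changed-in-size and kept classes, 7 fixed genes, up to 4 members per list with the smallest p, and the 3 most abundant called genes; others are marked as picked later. Alternatives used DESeq2 1.42.0, limma 3.58.1 voom, other scalings, filters and library sets. The fits were tested on simulated data. A planned search of promoters for FOXO motifs was not run. Figures were made in Python 3.11.15 with matplotlib 3.10.9.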

Additional observations from a re-analysis of the deposited data

Results flagged for a closer look

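The change with mutant mtDNA differed between libraries without and with labelled FOXO knockdown in 103 genes, by the edgeR test of the interaction itself. The values below are interactions on the log2 scale. More negative with knockdown were CG11893 (-3.54), CG10137 (-3.37), CG32302 (-2.44), CG4835 (-2.32), CG30025 (-2.31), NPF (-1.88), Try29F (-1.88), tobi (-1.72), Hsp27 (-1.61), Fst (-1.53), CG32483 (-1.52), 28SrRNA-Psi:CR45860 (-1.47), CG17571 (-1.38), Cyp6a14 (-1.11), RpLP2 (-1.08), snRNA:7SK (-1.03), RpS26 (-0.90), CG34324 (-0.90), RpL11 (-0.81), RpS28b (-0.81) and eEF1alpha1 (-0.73). More positive with knockdown were CG30090 (3.52), CG15695 (3.25), CG15083 (3.11), IntS12 (3.07), LysD (2.93), stnA and stnB (2.74 each, from identical counts), CG10178 (2.31), CG33109 (2.10), CG43187 (2.03), CG34236 (2.00) and Dtg (1.88). Of all 103 genes, 4 passed in each of the 8 fits that left out 1 library, which overlap with one another, namely tobi, Fst, CG4835 and CG10178, and 34 passed in at least 5.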

How the results depend on the processing

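The counts rest on few libraries and on the class term. The counts are, in order, interaction calls, changes without and with knockdown, and the classes. Without the class term, and with a replicate block in its place, all of them were 0. The 6 high-rRNA libraries gave 174 interaction calls, 239 changes without and 143 with knockdown, 4 reversed, 34 gained, 4 changed in size, 30 with the interaction alone and 21 kept. Total counts gave 28 interaction calls, 15 changes with knockdown, 21 lost, 0 reversed, 5 gained, 1 with the interaction alone and 2 kept. Removing rRNA genes gave 159 and 806 changes without knockdown, 3 reversed, 3 changed in size, 26 with the interaction alone and 17 kept. No filter gave 68, with 0 reversed, 6 gained and 8 with the interaction alone, and a filter of 5 CPM in 2 libraries gave 27 with the interaction alone. DESeq2 gave 281, 156 changes with knockdown, 156 lost, 18 reversed, 62 gained, 4 changed in size, 41 with the interaction alone and 30 kept. limma voom gave 162, with 120 lost, 3 reversed, 2 changed in size, 24 with the interaction alone and 17 kept. edgeR's older quasi-likelihood method gave 59, 241 changes without and 19 with knockdown, 42 lost, 0 reversed and 6 gained. An adjusted p under 0.01 gave 20, 188 and 9, with 15 lost, 0 reversed, 4 gained, 0 changed in size, 1 with the interaction alone and 4 kept. The cause of these shifts was not tested.

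Leaving out 1 library at a time gave 12 to 230 interaction calls, 213 to 683 changes without and 0 to 120 with knockdown, 6 to 161 lost, 0 to 11 reversed, 0 to 33 gained, 0 to 4 changed in size, 0 to 24 with the interaction alone and 0 to 25 kept. In those fits the group left with 1 library is assumed to vary like the others. Without a control or mutant replicate, both groups without knockdown rest on 1 library each beside the class term. Of 1007 values of 46 named genes under all alternatives, 16 changed sign, none of them in a called interaction. They were Arc1 (0.058) and CR10102 (0.069) in the 6 high-rRNA libraries, CR10102 (0.022) and foxo (0.038) with total counts, and CG12057 (-0.017) with limma voom. Leaving out a library gave -0.47 to 0.066 for Arc1, -0.26 to 0.12 for CR10102, -0.14 to 0.46 for CG12057, -0.76 to 0.0095 for Thor, -0.14 to 0.58 for brv3, -0.31 to 0.026 for mt:ND4 and -0.11 to 0.24 for LManIII.

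The replicate numbers were not taken as pairs, since only control and mutant libraries deviated together (r = 0.689). With the replicate block beside the class term, 34 genes passed the interaction test, 284 changed without and 18 with knockdown, and 27 were lost, 0 reversed, 5 gained, 0 changed in size and 2 with the interaction alone.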

Other observations

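Of the 103 called genes, 96 are annotated as protein-coding, 3 as non-coding RNA, 1 as small nuclear RNA and 1 as a pseudogene, and 2 were not in the annotation used here. Neighbouring genes were both called in 5 pairs, each with the same sign: Gal and CR43866, Mal-A3 and Mal-A4, CG44014 and CG44013, CG6296 and CG6295, and stnB and stnA. The first pair overlaps in sequence and the last had identical counts. In all, 14 called genes share at least 10% of their exon bases with another gene.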
